A study of Rattus norvegicus with 18 samples.

Results

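The neuropeptide precursors Npy, Sst, Penk, Tac1, Cck, Crh and Vip and the granins Chga and Chgb were followed in RNA sequencing libraries of primary rat cortical neuroglial cultures. They were chosen by name, as the rows carrying these 9 symbols among 31463 rows, and each symbol matched 1 row. The cultures came from the cortex of newborn Wistar rats, held neurons beside glia, received cytosine arabinoside to limit glial growth, and were used on day 10 in vitro. The 18 libraries formed 6 groups of 3. Control cultures received no glutamate. The Glutamate group was exposed to 100 µM glutamate, the Memantine group to 100 µM memantine in the same glutamate model, and Glutamate_vesicles, Glutamate_secret and Glutamate_BPC to glutamate after a day with material released by glial progenitor cells. RNA was taken 4 h after the model. The vesicle group received extracellular vesicles. For the remaining preparations, a protein fraction and the total secretome, the labels do not settle which one is called Glutamate_secret and which Glutamate_BPC. The study's methods say that its experiments were repeated on unrelated cultures, but do not say which culture each library came from, so that p-values measure the spread between these libraries, part of which may be technical.

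Neuropeptides are cut from larger precursors, packed into dense-core granules with the granins, and released by calcium-dependent exocytosis, mostly under strong firing. In the cortex, Sst (somatostatin), Npy (neuropeptide Y) and Vip (vasoactive intestinal peptide) mark classes of GABAergic interneurons. Cck (cholecystokinin) is made by interneurons and by many pyramidal cells, and Penk, Tac1 and Crh encode the precursors of enkephalins, of substance P and of corticotropin-releasing hormone. Chga and Chgb encode chromogranin A and chromogranin B, which condense the granule core.

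The shallowest library was Control 1 with 8409574 counts and the deepest Glutamate_vesicles 2 with 17206354, and ribosomal RNA took from 3.04% of the counts in Glutamate_secret 2 to 43.0% in Control 1. Levels are given as CPM, the count of a gene relative to a fixed library size after TMM scaling, and they are compared between libraries only, not between genes, because they are not per length. Control 1 stood apart with the lowest scaling factor, 0.417, and Memantine 3 was as low as the Glutamate libraries in its neuronal markers. The summed CPM of 10 pan-neuronal markers was 2120 to 3212 in Control, 756 to 1295 in Glutamate and 647 to 1028 in Glutamate_vesicles. In Memantine it was 3693, 2331 and 727, and the value of 727 belonged to Memantine 3.

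Of the 9 genes, 7 passed the filter on low counts and were tested. Tac1 and Crh did not. Tac1 had 25 reads in all, was at 0 in 11 libraries and reached at most 6 reads in 1 library. Crh had 104 reads in all, with 1 to 16 in each library. Without the filter, edgeR gave neither gene an unadjusted p below 0.05 in any of the 9 comparisons. The lowest was 0.0722, for Crh in Glutamate_vesicles against Control (log2 fold change -2.23, adjusted p = 0.658). Crh had 0.0997, 0.160 and 0.146 CPM in Glutamate_vesicles 1, 2 and 3, from 1, 4 and 3 reads, all below the 0.254 CPM, from 4 reads, of the lowest Glutamate library, where 3.38% of the tested genes had vesicle libraries below all Glutamate libraries. At these read numbers the levels of both genes are imprecise.

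Promoter sequence from RefSeq, assembly GRCr8, was at hand for 5 of the 9 genes, namely Npy, Sst, Tac1, Vip and Chgb. Windows of 140 bases before to 10 bases after the annotated start are shown for 4 of them, because Npy and Sst varied together across the libraries, as did Vip and Chgb. Capitals mark the cyclic AMP response element (CRE) TGACGTCA and its core TGACG, to which the factor CREB binds, and the TATA motif TATAAA. All 4 windows lie on the plus strand, at chr4:80211971-80212120 for Npy, chr11:90461406-90461555 for Sst, chr1:44470340-44470489 for Vip and chr3:140496572-140496721 for Chgb.
Npy: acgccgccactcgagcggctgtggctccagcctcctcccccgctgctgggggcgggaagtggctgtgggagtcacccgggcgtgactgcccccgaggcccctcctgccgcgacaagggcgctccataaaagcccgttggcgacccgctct
Sst: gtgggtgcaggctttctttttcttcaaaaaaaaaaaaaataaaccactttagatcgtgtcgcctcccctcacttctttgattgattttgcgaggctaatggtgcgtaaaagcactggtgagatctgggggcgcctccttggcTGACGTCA
Vip: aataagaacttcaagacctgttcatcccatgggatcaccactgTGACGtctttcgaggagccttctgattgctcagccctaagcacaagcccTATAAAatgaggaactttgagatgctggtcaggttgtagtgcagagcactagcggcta
Chgb: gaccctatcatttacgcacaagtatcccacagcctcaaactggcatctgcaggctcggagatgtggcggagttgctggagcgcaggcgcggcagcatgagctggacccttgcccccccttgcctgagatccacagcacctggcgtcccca
The full CRE occurred in Sst alone among the 5 promoters, from base 3 after the annotated start. The annotated starts were not checked against these libraries, so the place of the CRE relative to the start in use is open. The CRE occurred in 1.83% of 33469 rat promoters searched on both strands over 250 bases before to 50 bases after the start. The core TGACG, which is part of the full CRE, occurred in 3 of the 5 (Sst, Tac1 and Vip) and in 21.2% of all promoters. TATAAA occurred in Vip alone among the 5 and in 14.2% of all promoters, and the AP-1 motif TGANTCA in none of the 5 and in 7.33% of all. Npy and Sst shared none of these motifs, and neither did Vip and Chgb. Cck, which also varied with Sst and with Chga, could not be searched, and neither could Chga.

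The first comparison asked how exposure to glutamate changed the transcripts of these genes. No gene passed the threshold, but all 7 tested genes had lower fitted levels in Glutamate than in Control, led by Cck and the granins. With edgeR's quasi-likelihood test at an adjusted p below 0.05, 0 of the 7 were called, against 0% of 14398 genes. At an unadjusted p below 0.05, 3 were lower (Chgb, Chga and Vip), against 5.97% of all genes, and these 3 were also the genes whose libraries did not overlap, against 7.76% of all genes with Glutamate below Control. Neither DESeq2 (1.61% of all genes) nor edgeR's likelihood-ratio test (0.313% of all genes) called any of them. The median log2 fold change of the 7 genes was -1.08, against 0.08 over all genes, of which 44% were lower. In bulk RNA, fewer cells of a type and less RNA per cell cannot be told apart.

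**Figure D1:**
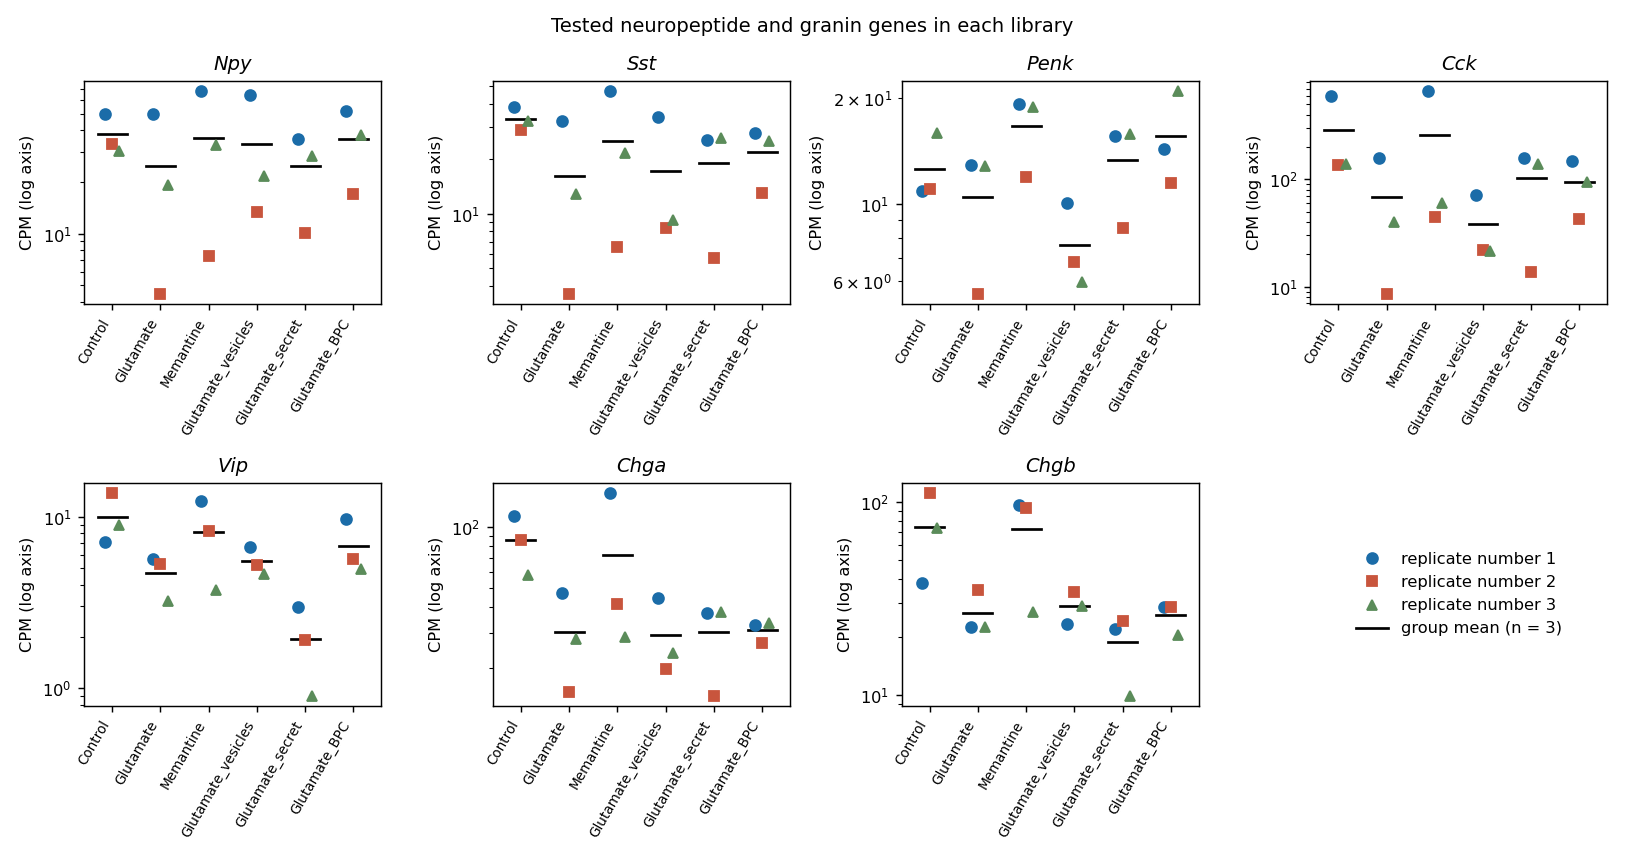
Each panel shows 1 tested gene, with CPM on a logarithmic axis for the 3 libraries of each of the 6 groups; the symbol gives the replicate number and the bar the group mean. In Npy, Sst and Cck the libraries of number 2 are mostly the lowest of their group, and Vip, Chga and Chgb lie lower in Glutamate than in Control in every library.

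Chgb had 38.3, 111 and 73.2 CPM in Control 1, 2 and 3. It had 22.6, 35.0 and 22.5 CPM in Glutamate 1, 2 and 3. Every Glutamate library lay below every Control library. The log2 fold change was -1.48 (SE 0.49, adjusted p = 0.364 by edgeR's quasi-likelihood test), and Chgb was lower in Glutamate within each of the 3 replicate numbers. Chga had 113, 85.9 and 57.6 CPM in Control and 47.3, 15.2 and 27.8 CPM in Glutamate, in order of replicate number. The groups again did not overlap, and the fitted log2 difference was -1.51 (SE 0.59, edgeR adjusted p = 0.471). Without Control 1, the library with the most ribosomal RNA, the log2 fold change was -1.26 for Chga and -1.79 for Chgb, and the unadjusted p of Chga in the edgeR fit was 0.0724 in place of 0.0223.

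Vip had 7.14, 13.8 and 8.94 CPM in Control and 5.68, 5.27 and 3.21 CPM in Glutamate. All Glutamate libraries were below all Control libraries, with a fitted log2 difference of -1.08 (SE 0.51, edgeR adjusted p = 0.613). Leaving out single libraries left between 1 and 4 of the 7 genes at an unadjusted p below 0.05. The count was 1 without Control 2 (Chga), without Glutamate 2 (Chgb) and without Glutamate 3 (Chgb). With the replicate number as a block, 6 of the 7 (all but Penk) were lower at this p. In that fit 2134 of 14398 genes passed this p in either direction. With the log2 ribosomal RNA share as a covariate the count was 5 (Cck, Chga, Chgb, Sst and Vip), where 2276 genes passed. Neither fit called any of the 7. The number 3 libraries of Glutamate and Control did not deviate together (r = -0.117).

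Cck had 592, 135 and 139.6 CPM in Control and 158, 8.57 and 39.7 CPM in Glutamate. Glutamate 1 was above Control 2 and 3, so that the groups overlapped, although Cck was lower within each replicate number. The log2 fold change of -2.07 had an SE of 1.18 (edgeR adjusted p = 0.769), and it was -1.0 without Control 1 and -3.57 without Glutamate 1. Sst had 38.5, 28.9 and 32.3 CPM in Control and 32.2, 3.62 and 12.7 CPM in Glutamate. Its Glutamate 1 library was inside the range of Control while Glutamate 2 was far below it, at a log2 fold change of -1.04 (SE 0.81), which was -2.02 without Glutamate 1 and -0.56 without Glutamate 2. Npy had 50.3, 33.2 and 30.5 CPM in Control and 50.2, 4.44 and 19.3 CPM in Glutamate. Within replicate number 1 Glutamate and Control were at 50.2 and 50.3 CPM, and the fitted log2 fold change was -0.62 (SE 0.84), or -1.68 without Glutamate 1, -0.37 without Control 1 and -0.12 without Glutamate 2. Penk, at 10.8 to 15.9 CPM in Control and 5.52 to 12.9 CPM in Glutamate, had the smallest fitted difference of the 7 genes (-0.28, SE 0.41), and this turned to 0.03 without Glutamate 2.

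**Figure D2:**
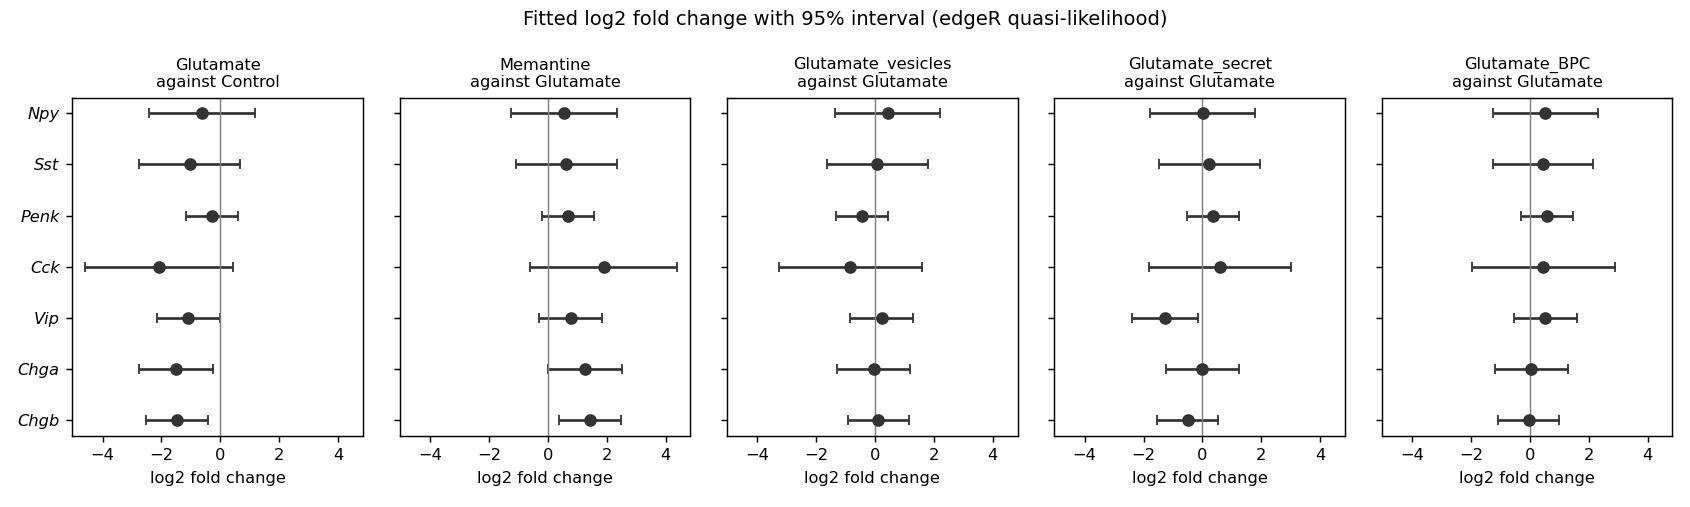
Points are fitted log2 fold changes of the 7 tested genes and lines their 95% intervals from the edgeR quasi-likelihood fit, 1 panel per comparison, with 0 as the grey line. In the first panel all points lie below 0 and in the second all lie above 0, while in the panels of the 3 preparations only the interval of Vip in Glutamate_secret lies clear of 0.

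The second comparison set memantine, a blocker of NMDA-type glutamate receptors, against glutamate alone. All 7 genes had higher fitted levels in Memantine, by a median of 0.78 on the log2 scale, where 48.4% of all genes were higher. None was called (0% of all genes by edgeR's quasi-likelihood test, with 0 of the 7 also called by the likelihood-ratio test, at 0% of all genes, and by DESeq2, at 0.0139%), 2 were higher at an unadjusted p below 0.05 (Chga and Chgb, against 4.88% of all genes), and in none were the libraries separate (1.74% of all genes).

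Chgb had 96.6, 93.1 and 26.9 CPM in Memantine 1, 2 and 3. Memantine 1 and 2 were above all Glutamate libraries and Memantine 3 was among them, with a fitted log2 difference of 1.43 (SE 0.49, edgeR adjusted p = 0.621). Chga had 147, 41.4 and 28.5 CPM, where Memantine 1 was above all Glutamate libraries and the other two among them, with a fitted log2 difference of 1.27 (SE 0.59, edgeR adjusted p = 0.970). At an unadjusted p below 0.05, Chgb alone was higher without Glutamate 2, Glutamate 3 or Memantine 1. Without Memantine 3 the log2 fold changes were 1.82 for Chgb and 1.65 for Chga, with adjusted p of 0.0521 and 0.209 in the edgeR fit. Memantine 3 was the library that resembled Glutamate in its pan-neuronal markers, and the part of this in the result was not tested.

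Cck had 663, 44.9 and 60.7 CPM in Memantine, so that its mean of 256 CPM (SD 352, n = 3) came mostly from Memantine 1. The log2 fold change was 1.90 (SE 1.17) with all libraries and -0.38 without Memantine 1. Npy and Sst also turned sign without this library, to -0.28 and -0.21. Within replicate numbers, all 7 genes were higher in Memantine than in Glutamate in 3 of 3 numbers. In number 3 the log2 difference ran from 0.04 (Chga) to 0.78 (Npy). The share of all genes that were higher in all 3 numbers was not computed. With the number as a block, 4 genes (Penk, Cck, Chga and Chgb) were higher at an unadjusted p below 0.05, where 7.23% of all genes were, and 0 were called. The same-numbered libraries of Memantine and Glutamate deviated together, but the block was fitted over all 6 groups, and those of some other groups did not. Against Control, no difference of Memantine passed the test. The log2 fold changes lay between -0.41 (Sst, SE 0.80) and 0.40 (Penk, SE 0.41), 0 of the 7 had an unadjusted p below 0.05 (0.542% of all genes were lower and 0.576% higher at this p), and 0 were called by edgeR's quasi-likelihood test, DESeq2 or the likelihood-ratio test (0% of all genes by each). Without Memantine 1, Chga was lower at an unadjusted p of 0.0326 in the edgeR fit.

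The next comparisons asked whether a preparation from glial progenitor cells altered these genes under glutamate. They share the Glutamate libraries, and none of the 7 genes was called in any of them by edgeR's quasi-likelihood test (0% of all genes in each). DESeq2 and the likelihood-ratio test called none of the 7 either, at 0.0209% and 0.0139% of all genes for Glutamate_vesicles, 0% for Glutamate_secret by both, and 0.00696% and 0% for Glutamate_BPC. In Glutamate_vesicles, 4 of the 7 genes had higher and 3 lower fitted levels than in Glutamate, where 48.7% of all genes were higher, and 0 had an unadjusted p below 0.05 (0.597% of all genes were lower and 0.479% higher at this p). In Glutamate_BPC, 6 were higher and 1 lower, where 45.3% of all genes were higher, again with 0 at an unadjusted p below 0.05 (0.667% of all genes lower and 0.403% higher). In Glutamate_secret, 1 gene had an unadjusted p below 0.05, and this was Vip, lower than in Glutamate (0.361% of all genes were lower at this p).

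Vip had 2.99, 1.90 and 0.905 CPM in Glutamate_secret 1, 2 and 3, from 19, 43 and 5 reads. These were the 3 lowest values among the 18 libraries, although the highest of them was close to the 3.21 CPM of Glutamate 3. The log2 fold change against Glutamate was -1.28 (SE 0.52, edgeR adjusted p = 1), and 2.01% of all genes had Glutamate_secret libraries below all Glutamate libraries. Vip was lower within each of the 3 replicate numbers, and its unadjusted p was 0.0054 in the edgeR fit blocked by number (adjusted p = 0.938). In the unblocked fit it was 0.0273 with all libraries, 0.105 without Glutamate_secret 3, which had 5 reads, 0.0726 without Glutamate 1, 0.0622 without Glutamate 2, 0.0618 without Glutamate_secret 2, 0.0205 without Glutamate 3 and 0.0126 without Glutamate_secret 1, all in the edgeR fit. Vip had 6.68, 5.22 and 4.67 CPM in Glutamate_vesicles and 9.69, 5.65 and 4.99 CPM in Glutamate_BPC, both overlapping Glutamate. Ordered by group means, Vip ran from Control (9.96 CPM) through Memantine (8.12), Glutamate_BPC (6.78), Glutamate_vesicles (5.52) and Glutamate (4.72) to Glutamate_secret (1.93), and only the last step had libraries that did not overlap. The mean log2 CPM of Vip relative to that of 15 GABAergic interneuron markers was -0.07 in Control, 0.06 in Glutamate and -1.11 in Glutamate_secret. On this scale Glutamate_secret 1 was only just below the lowest Control library, and Glutamate_secret 3, with 5 reads, was the lowest of its group.

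Chgb lay below every Control library in all 3 preparations. It had 23.2, 34.4 and 29.0 CPM in Glutamate_vesicles, 22.1, 24.2 and 9.96 CPM in Glutamate_secret, and 28.5, 28.6 and 20.4 CPM in Glutamate_BPC. They overlapped with the Glutamate libraries, and the 95% interval of the log2 difference from Glutamate was -0.91 to 1.14 for the vesicles. Chga had 44.3, 19.7 and 23.7 CPM in Glutamate_vesicles, 37.6, 14.6 and 37.8 CPM in Glutamate_secret, and 32.6, 26.7 and 33.4 CPM in Glutamate_BPC. Its fitted difference from Glutamate was at most 0.04 on the log2 scale in either direction, with an SE of 0.58 in each case, and all 9 libraries were below the Control range.

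Cck had 71.8, 22 and 21.5 CPM in Glutamate_vesicles, 158, 13.8 and 138.7 CPM in Glutamate_secret and 148, 42.4 and 93.5 CPM in Glutamate_BPC. The vesicle libraries were all below the lowest Control library, and the other preparations overlapped with Control. Npy had 64.5, 13.4 and 21.6 CPM in Glutamate_vesicles, 35.9, 10.0 and 28.2 CPM in Glutamate_secret and 52.2, 17 and 37.4 CPM in Glutamate_BPC, overlapping with both Control and Glutamate. Sst had 33.8, 8.31 and 9.19 CPM in Glutamate_vesicles, 25.4, 5.71 and 25.9 CPM in Glutamate_secret, and 27.6, 12.9 and 25.2 CPM in Glutamate_BPC. The highest Sst value in Glutamate_secret and in Glutamate_BPC was below the lowest in Control. Penk ranged from 5.98 CPM (Glutamate_vesicles 3) to 20.9 CPM (Glutamate_BPC 3) over the preparations, and its libraries of Glutamate_vesicles all lay below Control.

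Compared with Control, the same preparations had their lowest p-values in the granins and, in Glutamate_secret, in Vip. These comparisons share the Control libraries with each other and with the first one. In Glutamate_secret, the log2 fold change was -2.36 for Vip (SE 0.54, edgeR adjusted p = 0.133), -1.98 for Chgb (SE 0.50, adjusted p = 0.134) and -1.51 for Chga (SE 0.60, adjusted p = 0.330). None of the 7 genes was called by the quasi-likelihood test (0% of all genes), 3 had an unadjusted p below 0.05 (7.61% of all genes were lower at this p), and in 4 genes, Sst, Vip, Chga and Chgb, the libraries lay below Control without overlap (9.07% of all genes). Without Control 1 the log2 fold change of Chga was -1.26, at an unadjusted p of 0.0715 in the edgeR fit, and without Glutamate_secret 2 it was -1.18, at 0.0870. DESeq2 called Vip (adjusted p = 0.00244) and Chgb (adjusted p = 0.0113), where it called 3.18% of all genes, and edgeR's likelihood-ratio test also called both (adjusted p = 0.0109 and 0.0233), where it called 1.55% of all.

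In Glutamate_vesicles, 0 of the 7 genes were called against Control by the quasi-likelihood test (0.0139% of all genes), 0 by the likelihood-ratio test (1.11%) and 0 by DESeq2 (3.65%). The libraries of 5 genes, Penk, Cck, Vip, Chga and Chgb, lay below Control without overlap (9.83% of all genes), and 3 of these had an unadjusted p below 0.05 (7.61% of all genes were lower at this p). The largest fitted difference was in Cck, at -2.91 (SE 1.22, edgeR adjusted p = 0.363), and this was -1.84 without Control 1 and -3.72 without Glutamate_vesicles 1. With the replicate number as a block, Cck (adjusted p = 0.0308) and Chga (adjusted p = 0.0394) were called by edgeR, where 3.74% of all genes were called. The same-numbered libraries of these groups deviated together, but the block was fitted over all 6 groups, and those of some other groups did not. Without Control 1, Chgb was the only 1 of the 7 at an unadjusted p below 0.05 in the unblocked fit, and likewise without Glutamate_vesicles 2 and without Glutamate_vesicles 3.

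In Glutamate_BPC, 0 of the 7 genes were called against Control (0% of all genes), 0 by the likelihood-ratio test (0.424%) and 0 by DESeq2 (1.85%). Chgb (-1.52, SE 0.49, edgeR adjusted p = 0.303) and Chga (-1.47, SE 0.59, adjusted p = 0.367) had an unadjusted p below 0.05 (7.42% of all genes were lower at this p), and Sst, Chga and Chgb had libraries below Control without overlap (12.7% of all genes). Without Control 1, Glutamate_BPC 1 or Glutamate_BPC 2, Chgb alone was at this p. Over all 6 groups, the edgeR F test gave an adjusted p of 0.150 for Chgb, 0.302 for Vip and 0.515 for Chga, and called 0 of the 7 genes (0.00695% of all genes). At an unadjusted p below 0.05 it found these 3 genes, where 7.75% of all genes passed. DESeq2 and the likelihood-ratio test each called Vip and Chgb over the 6 groups, where they called 4.99% and 4.08% of all genes. Without Memantine 3 the edgeR F test called 1 of the 7, Chgb, where it called 3.41% of all genes.

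Npy, Sst and Cck differed widely between libraries of different replicate number. With group and number both in the edgeR fit, a test added after the data had been seen, 6 of the 7 genes differed among the 3 numbers at an adjusted p below 0.05, where 60.4% of all genes did. Chgb was the exception (adjusted p = 0.0650). Number 2 was below number 1 at a log2 fold change of -2.82 for Cck (SE 0.46, adjusted p = 0.000994), -2.11 for Npy (SE 0.33, adjusted p = 0.000994) and -1.93 for Sst (SE 0.34, adjusted p = 0.00129). Npy was highest in number 1 in all 6 groups and lowest in number 2 in 5 of them. Over the 6 libraries of a number, the median of Npy was 51.2 CPM in number 1, 11.7 CPM in number 2 and 29.4 CPM in number 3. Chgb had its highest library in number 2 in 5 of the 6 groups, so that the numbers were not ordered alike for all granule genes. The study adjusted its clustering of cultures without glutamate, another experiment, for a day. For the glutamate experiment it names a batch correction without saying what the batch was. The sources used here do not say whether the numbers stand for days.

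**Figure D3:**
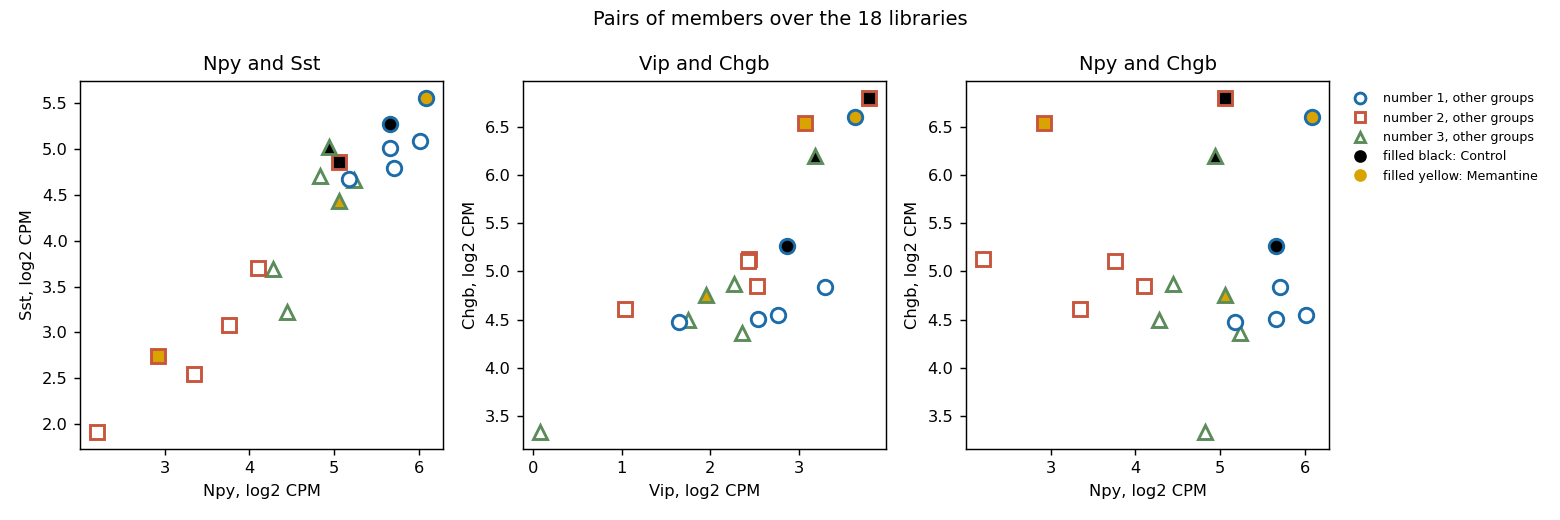
Each point is 1 of the 18 libraries, with log2 CPM of 1 gene on each axis; symbol and outline give the replicate number and the filling marks Control (black) and Memantine (yellow). Npy and Sst lie along 1 line (r = 0.955), Vip and Chgb along another with Control 2 and 3 and Memantine 1 and 2 at its upper end (r = 0.81), and Npy and Chgb show no common line (r = -0.06).

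Across the 18 libraries, which share groups and numbers, Npy and Sst had a Pearson r of 0.955 (Spearman rho 0.893), and within numbers 1, 2 and 3 r was 0.754, 0.967 and 0.797. Cck varied with Sst (r = 0.913, rho 0.874) and with Chga (r = 0.909, rho 0.843). Vip and Chgb formed another pair (r = 0.81, rho 0.75), with r of 0.723, 0.858 and 0.91 within numbers. Npy and Chgb had an r of -0.06 (rho -0.09), with r of 0.57, 0.337 and 0.0504 within numbers. Chga and Chgb, both granins, had an r of 0.518 (rho 0.302) over all libraries. Within numbers 1, 2 and 3 their r was higher in 1 and 2, at 0.861, 0.898 and 0.426. These are descriptions of 18 libraries and carry no test. Among all tested genes, the pattern most like that of Npy was found for Pcp4 (r = 0.964) and Pafah1b3 (r = 0.958), and that of Sst for Mgst3 (r = 0.972) and LOC120093525 (r = 0.962). For Cck it was C1qtnf4 (r = 0.987) and Ly6h (r = 0.985), for Chga Rhov (r = 0.983) and Klc1 (r = 0.982), and for Chgb Klhl18 (r = 0.968) and Hs6st1 (r = 0.967). Vip was most like Galnt14 (r = 0.91) and Rtbdn (r = 0.894), and Penk most like Il18bp (r = 0.846) and Rhbdl1 (r = 0.843).

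The rest of the peptide system was described by gene lists, and no gene of any list was called by edgeR's quasi-likelihood test in Glutamate against Control. Among the other granins, which share the granule core with Chga and Chgb, 3 of 5 tested genes were lower (median -0.23) and 1 was higher at an unadjusted p below 0.05. This was Vgf, the precursor of several secreted peptides. Vgf had 10.8, 9.42 and 21.4 CPM in Control and 147.6, 19.7 and 24.9 CPM in Glutamate, where Glutamate 1 stood far above the rest and Glutamate 2 lay within the Control range (log2 fold change 2.20, SE 0.80, edgeR adjusted p = 0.425). It had 135, 147 and 263 CPM in Glutamate_vesicles, at a log2 fold change of 3.70 against Control (SE 0.85, edgeR adjusted p = 0.162), and its libraries of all 3 preparations lay above Control. In those 9 libraries Vgf was above and Chgb below the Control range. Of the 5 other granins, DESeq2 called 1 against Control in each preparation. It called 3.65% of all genes in Glutamate_vesicles, 3.18% in Glutamate_secret and 1.85% in Glutamate_BPC.

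Of 28 other neuropeptide precursors listed, 13 were tested, and 9 were lower in Glutamate than in Control (median -0.88). At an unadjusted p below 0.05, 4 of them were lower, against 5.97% of all genes. DESeq2 called 3, where it called 1.61% of all genes, namely Adcyap1 (log2 fold change -3.0 in the edgeR fit, DESeq2 adjusted p = 0.0370), the precursor of PACAP, Nppc (-4.07, adjusted p = 0.0271), that of C-type natriuretic peptide, and Grp (-4.03, adjusted p = 0.0358), that of gastrin-releasing peptide. Their Glutamate means were low, at 0.750, 0.312 and 0.430 CPM in this order. The Control mean of Nppc, 5.53 CPM, had an SD of 8.07 (n = 3), so that its libraries differed widely. Of 21 neuropeptide receptors listed, 10 were tested, and 9 were lower (median -2.43), 6 at an unadjusted p below 0.05. Npy1r, a receptor of neuropeptide Y, had 10.8, 6.92 and 6.14 CPM in Control and 0.646, 0.444 and 0.292 CPM in Glutamate. The groups were far apart (log2 fold change -4.09, SE 0.94, edgeR adjusted p = 0.261, DESeq2 adjusted p = 0.00434), and in Memantine the level was 0.752, 7.61 and 0.359 CPM, high in Memantine 2 alone. Sstr4, a somatostatin receptor, was at -3.74 on the log2 scale (SE 1.25, edgeR adjusted p = 0.364), and Sstr3, another, had 0 reads in all 3 Glutamate libraries against a mean of 1.70 CPM in Control (SD 0.84, n = 3).

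The genes that cut and store the peptides were closer to 0. Of 9 peptide processing enzymes, 5 were lower in Glutamate (median -0.13), and 2 of these had an unadjusted p below 0.05, Qpct, which forms the pyroglutamate end of some peptides (-1.78, edgeR adjusted p = 0.386), and the prohormone convertase Pcsk2 (-1.44, adjusted p = 0.577). Ctsl, encoding cathepsin L, was at 0.54 (edgeR adjusted p = 0.881). Of 11 dense-core granule proteins, 8 were lower (median -0.19), 2 of them at an unadjusted p below 0.05, Ptprn2, a granule membrane protein (-1.70, edgeR adjusted p = 0.413), and Cadps, a priming factor of granule release (-1.34, adjusted p = 0.590). Ica1 was at -0.60 (edgeR adjusted p = 0.634). At an unadjusted p below 0.05, 5.97% of all genes were lower in Glutamate than in Control. Among the other granins, Scg5, a chaperone of Pcsk2, was at -1.63 and Pcsk1n at -0.77 (edgeR adjusted p = 0.832 and 0.999).

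**Figure D4:**
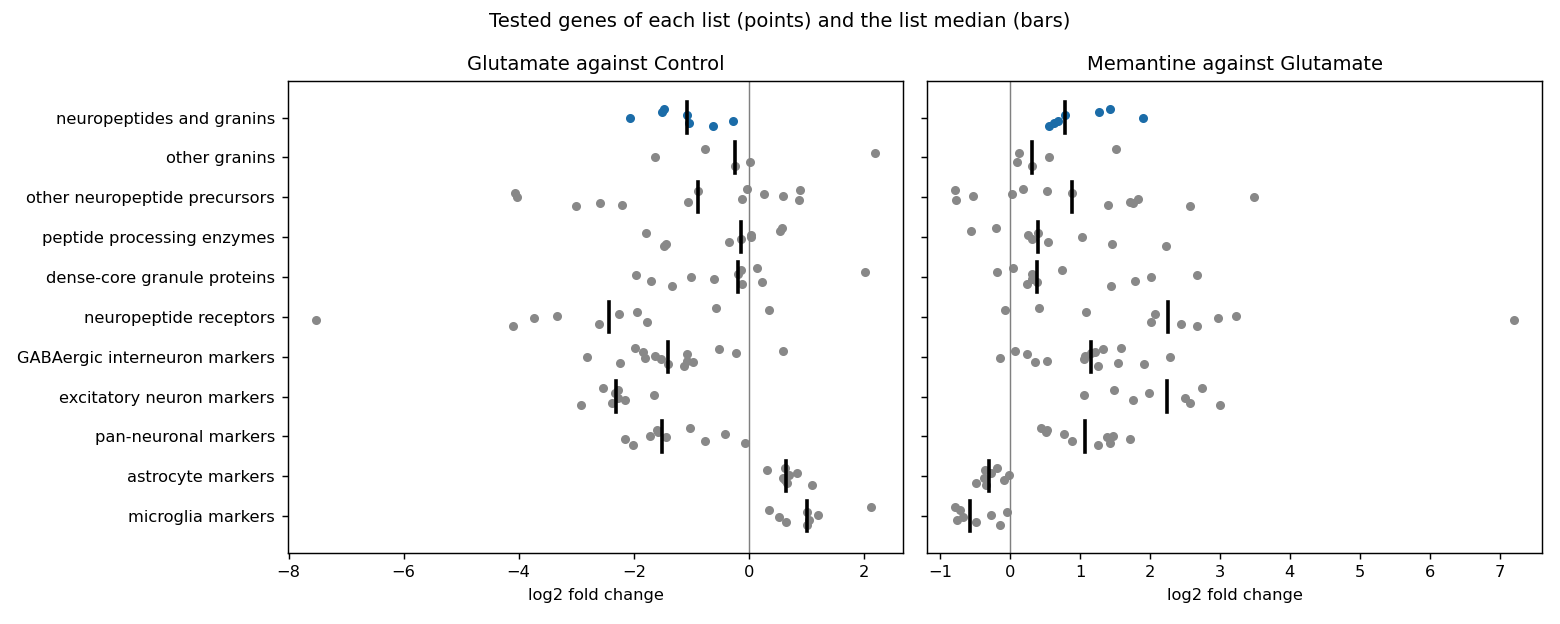
Points are fitted log2 fold changes of the tested genes of each list, the black bars list medians, for Glutamate against Control (left) and Memantine against Glutamate (right). The neuropeptides and granins (blue, medians -1.08 and 0.78) lie on the same side of 0 as the neuronal lists, and astrocyte and microglia markers lie on the other side.

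Markers of neurons lay on the same side of Control as the neuropeptides and granins. Over all genes, 5.97% were lower in Glutamate than in Control at an unadjusted p below 0.05. In Glutamate against Control, 14 of 15 GABAergic interneuron markers were lower (median -1.40), 8 at an unadjusted p below 0.05, as were 8 of 8 excitatory neuron markers (median -2.30), 7 at this p, and 10 of 10 pan-neuronal markers (median -1.51), 5 at this p. Slc32a1, the vesicular GABA transporter, had a log2 fold change of -2.23 (DESeq2 adjusted p = 0.00126), Calb2, encoding calretinin, -1.84 (DESeq2 adjusted p = 0.0399), and Htr3a, a serotonin receptor of interneurons, -1.98 (DESeq2 adjusted p = 0.0947). Slc17a7, Neurod6 and Emx1 of the excitatory list were at -2.92, -2.33 and -2.28, and Tubb3, Stmn2 and Elavl4 of the pan-neuronal list at -2.02, -1.72 and -1.58. The summed CPM of the GABAergic markers was 385 to 611 in Control, 125 to 232 in Glutamate and 464, 462 and 146 in Memantine. The 8 astrocyte markers were all higher in Glutamate (median 0.65), none at an unadjusted p below 0.05, with Gfap at 1.09, S100b at 0.84 and Aldoc at 0.63, and their summed CPM was 2954 to 6399 in Control and 5676 to 11335 in Glutamate. All 8 microglia markers were also higher (median 1.01), 1 of them at an unadjusted p below 0.05 (Tmem119, 2.12), with C1qa at 1.19 and Aif1 at 1.01. Of 8 oligodendrocyte lineage markers 7 were higher (median 0.59, with Sox10 at 0.85, Olig2 at 0.60 and Olig1 at 0.45), of 4 fibroblast and mural markers 3 were higher (median 0.60, with Col1a1 at 1.14, Col1a2 at 0.57 and Col3a1 at 0.62), and the only tested endothelial marker, Pecam1, was at -2.04. The part of these cell types in the levels of the neuropeptides and granins was not tested.

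Relative to the mean log2 CPM of the pan-neuronal markers in the same library, Chgb was at -0.74 in Control (-1.98 to -0.08) and -0.97 in Glutamate (-1.41 to -0.54), and Chga at -0.46 in Control (-0.55 to -0.42) and -0.91 in Glutamate (-1.73 to -0.35). The ranges of both groups overlapped for each gene. Vip was at -3.55 in Control, -3.44 in Glutamate and -4.39 in Glutamate_secret on the same scale. The ranges of Glutamate_secret and Control overlapped, with Control 1 below Glutamate_secret 1 and 2. All Glutamate_secret libraries lay below the Glutamate libraries, and the lowest was Glutamate_secret 3, with 5 reads of Vip.

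Genes linked to activity through CREB were mostly higher than in Control, in Glutamate and in each other group given glutamate. Of 13 such genes, 11 were higher in Glutamate than in Control (median 1.24), 5 at an unadjusted p below 0.05, among them Fos (2.13, DESeq2 adjusted p = 0.00106), Crem (1.31, DESeq2 adjusted p = 0.192) and Egr1 (1.27, DESeq2 adjusted p = 0.254). Over all 14398 genes, 1167 had an unadjusted p below 0.05 in this edgeR fit, and 860 of them were lower. Sst, with the CRE shown above, was at -1.04 (SE 0.81) in the same fit, and Vip, with its core, at -1.08 (SE 0.51). Against Control, 12 of the 13 CREB-linked genes were also higher in Memantine (median 0.81) and 12 in Glutamate_secret (median 0.93). In Glutamate_vesicles 10 were higher (median 0.94), and in Glutamate_BPC 9 (median 1.26). The part of CREB in the levels of the neuropeptides and granins was not tested.

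In Memantine against Glutamate, 9 of 10 neuropeptide receptors, 10 of 13 other precursors, 14 of 15 GABAergic markers, 8 of 8 excitatory markers and 10 of 10 pan-neuronal markers were higher, with 5, 3, 6, 7 and 2 at an unadjusted p below 0.05. At this p, 4.88% of all genes were higher. The medians of these lists were 2.26, 0.89, 1.16, 2.25 and 1.07 on the log2 scale, and none of their genes was called by edgeR (0% of all genes). In Glutamate_secret against Glutamate, where Vip was lower, 11 of the 15 GABAergic markers were lower (median -0.26), 0 of them at an unadjusted p below 0.05, and 6 of 10 pan-neuronal markers were lower (median -0.13), also with 0 at this p.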

How the data were processed

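RNA was measured in 18 libraries, 3 in each of 6 groups taken from the sample titles. The deposited values are expected counts per gene, which the authors estimated with Salmon (version not given in the sources used here), after trimming with Trimmomatic and Cutadapt, against rat transcripts with the genome as decoy (build rn6) and summed with tximport. The submitters' notes also name STAR. The paper and the labels name different sequencing platforms. Expected counts were rounded to whole numbers, since the design assumed counts.

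All 14398 genes that passed filterByExpr (minimum count 10, minimum total 15) were fitted in edgeR 4.0.16 (R 4.3.3) with 1 mean per group, TMM scaling and the two-sided quasi-likelihood test, with Benjamini-Hochberg adjustment over all tested genes and a threshold of 0.05. The standard error (SE) was taken from the F statistic. Values are CPM, and log2 CPM used a prior count of 2. Comparisons numbered 9, beside 1 F test over the 6 groups. DESeq2 1.42.0, the likelihood-ratio test, other scaling, no filter, removal or adjustment for ribosomal RNA, 2-group fits, the replicate number as a block and leaving out each library were alternatives. The pipeline was tested on simulated data.

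The genes and lists were chosen with earlier results of these data known. Beside the 9 genes, the text names from each list the 3 tested genes of lowest unadjusted p between Glutamate and Control and, for each tested gene, the other 2 genes with the highest Pearson r. The numbers were taken to pair groups where, over genes, each of the 3 same-numbered pairs had deviations from the group means correlated above 0.1. This held for Memantine, Glutamate_secret and Glutamate_BPC with Glutamate (r from 0.445 to 0.892) and for Glutamate_vesicles with Control (r from 0.208 to 0.600). The blocked fit took the effect of the number as the same in all 6 groups, including groups for which this did not hold. The numbers come from the titles, which do not say what they mark. Promoters came from a RefSeq table of another build (GRCr8), and the files' build was not used for coordinates.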

Additional observations from a re-analysis of the deposited data

How the results depend on the processing

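Calls in this paragraph are counted among the tested neuropeptides and granins, unless all genes are named. No setting called any of these genes in Glutamate against Control, Memantine against Control, Glutamate_BPC against Control or any group against Glutamate. Of all genes, DESeq2 called 1.61% in Glutamate against Control and 1.85% in Glutamate_BPC against Control. In Glutamate_secret against Control, where the edgeR quasi-likelihood test called 0, DESeq2 called 2 genes, the likelihood-ratio test 2 and the fit with the log2 ribosomal RNA share as a covariate 2 (Vip and Chgb each time, with 4.04% of all genes called by the covariate fit). Over the 6 groups, DESeq2 called 2 genes and edgeR's likelihood-ratio test 2 (Vip and Chgb), and the F test called 2 with the ribosomal RNA covariate (Chga and Chgb, with 2.67% of all genes) and 1 without Memantine 3 (Chgb, with 3.41%). With the replicate block, 3 genes were called in Glutamate_secret against Control and 3 over the 6 groups (Vip, Chga and Chgb in both, among 700 and 497 genes in all), and 2 in Glutamate_vesicles against Control. The block changed no other call. In Glutamate_secret, Glutamate_BPC, Glutamate and Memantine against Control and in Glutamate_vesicles against Glutamate, not every same-numbered pair deviated together (lowest r -0.454), so that the blocked values there share only a number. The causes were not tested.

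Of the log2 fold changes of single genes, 805 values under alternatives kept direction and side of the threshold, 11 passed the threshold anew and 66 turned sign. With the ribosomal RNA covariate, the sign turned in Glutamate_vesicles against Glutamate to 0.36 for Cck, 0.40 for Chga and -0.18 for Chgb, in Memantine against Control to 0.23 for Cck and 0.0057 for Npy, and in Glutamate_secret against Control to -0.0040 for Penk. In Glutamate_secret against Glutamate, Chga was at 0.0448 with DESeq2, 0.0447 with its size factors, 0.15 with the ribosomal RNA covariate, 0.013 in the 2-group fit and 0.066 with the block, and Npy at -0.00071 without a filter. The other reversals came from leaving out 1 library, and the ranges that follow are over those fits alone. In Glutamate_BPC against Glutamate, the lowest and highest log2 fold changes were -0.062 to 1.97 for Cck, -0.28 to 0.52 for Chga, -0.16 to 0.20 for Chgb and -0.036 to 1.42 for Sst. In Glutamate_vesicles against Glutamate, the lowest and highest log2 fold changes were -1.66 to 0.67 for Cck, -0.47 to 0.44 for Chga, -0.031 to 0.36 for Chgb, -0.49 to 1.49 for Npy and -0.88 to 1.06 for Sst. In Memantine against Control, the lowest and highest log2 fold changes were -2.44 to 0.90 for Cck, -1.29 to 0.16 for Chga, -0.36 to 0.37 for Chgb, -0.90 to 0.41 for Npy, -1.25 to 0.044 for Sst and -0.73 to 0.062 for Vip. In Memantine against Glutamate, the lowest and highest log2 fold changes were -0.38 to 3.41 for Cck, -0.28 to 1.61 for Npy and -0.21 to 1.61 for Sst. In Glutamate_secret against Glutamate, the lowest and highest log2 fold changes were -0.33 to 0.48 for Chga, -0.50 to 1.06 for Npy and -0.25 to 1.21 for Sst. In Glutamate_BPC against Control, the lowest and highest log2 fold changes were -0.48 to 0.24 for Npy. In Glutamate_vesicles against Control, the lowest and highest log2 fold changes were -1.11 to 0.19 for Npy. In Glutamate against Control, the lowest and highest log2 fold changes were -0.46 to 0.033 for Penk. In Glutamate_secret against Control, the lowest and highest log2 fold changes were -0.067 to 0.31 for Penk. With 3 libraries a group, most intervals of the fold changes spanned 0, and Tac1 and Crh had too few reads to pass the filter.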
